A study of Rattus norvegicus with 70 samples.

Results

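The core circadian clock genes examined here are Bmal1 (also called Arntl), Clock, Npas2, Per2, Per3, Cry1, Nr1d1, Nr1d2, Dbp and Tef, 10 of the 15319 genes counted in each table of the series. They were chosen by name, and all 10 were found by their NCBI gene numbers in all 6 tables. RNA sequencing was done on 3 fat depots, brown (BAT), subcutaneous (SAT) and visceral (VAT), of 24 Sprague-Dawley rats, an outbred strain, and gave 70 libraries in 12 groups. The exposed rats inhaled PCB 52, a polychlorinated biphenyl, through the nose for 4 h a day over 28 days, and the labels call the unexposed rats sham without saying what they breathed. PCB 52 and sham rats of either sex arrived at 28 days of age, were trained in the inhalation apparatus, ate the same stock diet, and the labels name no altered allele. Males were 39 and females 42 days old when exposure began, and sex and this age cannot be told apart. Each group of 1 treatment, sex and depot had 6 libraries, except male VAT PCB 52 and female SAT sham with 5 each. The labels give neither the time of day at which tissue was taken nor the lighting.

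The clock is a loop of transcription and translation that runs in almost every cell, fat cells included. BMAL1 pairs with CLOCK or its relative NPAS2 and switches on genes with E-box elements, among them the Per, Cry, Nr1d1, Nr1d2, Dbp and Tef genes. PER and CRY proteins block that pair, and the receptors REV-ERB alpha (Nr1d1) and REV-ERB beta (Nr1d2) repress Bmal1 and Npas2 through elements they share with ROR receptors. DBP and TEF are PAR bZIP factors that carry the rhythm to output genes through D-boxes. Bmal1 and Npas2 therefore peak at about the opposite time of day to Nr1d1 and Dbp, and any 1 time of collection records 1 phase of the cycle.

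The 3 kinds of element in this loop can be read in the 250 bases before the RefSeq transcription start of 4 members. These are the members in which a motif searched for was found. Per3, Nr1d2 and Dbp, which also varied against Bmal1 among rats in the results that follow, had none. The bases are written 5′ to 3′ in lower case, with the motif found in capitals. The sequences are those of the GRCr8 assembly, at chr1:176766078-176766327 on the plus strand for Bmal1, chr7:115206577-115206826 on the plus strand for Tef, chr10:84229455-84229704 on the minus strand for Nr1d1 and chr9:99496994-99497243 on the minus strand for Per2. The submitters' processing notes name rn6, another build, so these positions belong to the sequences alone.
Bmal1: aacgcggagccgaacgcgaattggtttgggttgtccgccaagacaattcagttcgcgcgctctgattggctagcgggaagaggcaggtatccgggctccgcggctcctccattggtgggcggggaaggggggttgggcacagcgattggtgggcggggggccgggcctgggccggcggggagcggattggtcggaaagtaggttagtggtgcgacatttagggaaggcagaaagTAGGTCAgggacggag
Tef: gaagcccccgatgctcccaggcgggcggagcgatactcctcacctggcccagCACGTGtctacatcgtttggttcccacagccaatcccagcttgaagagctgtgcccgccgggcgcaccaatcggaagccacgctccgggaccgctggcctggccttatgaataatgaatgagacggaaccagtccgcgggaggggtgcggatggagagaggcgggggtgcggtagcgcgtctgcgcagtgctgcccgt
Nr1d1: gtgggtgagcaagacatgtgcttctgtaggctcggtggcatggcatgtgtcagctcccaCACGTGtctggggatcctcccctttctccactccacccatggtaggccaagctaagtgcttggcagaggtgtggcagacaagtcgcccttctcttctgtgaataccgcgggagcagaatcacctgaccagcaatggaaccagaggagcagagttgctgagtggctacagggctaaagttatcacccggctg
Per2: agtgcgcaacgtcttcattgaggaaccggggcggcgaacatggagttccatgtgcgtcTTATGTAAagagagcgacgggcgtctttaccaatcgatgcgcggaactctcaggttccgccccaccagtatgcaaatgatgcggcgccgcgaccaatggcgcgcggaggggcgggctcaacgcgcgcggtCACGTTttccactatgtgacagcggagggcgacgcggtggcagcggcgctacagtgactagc
The capitals in Bmal1 are TAGGTCA, a REV-ERB and ROR element beginning at position -16 from the start, those in Tef and Nr1d1 are the E-box CACGTG at positions -198 and -191, and those in Per2 are the D-box TTATGTAA at -192 and the E-box-like CACGTT at -62. A second annotated Nr1d1 start has the same E-box-like letters on its other strand, written AACGTG, at -174. Searched on both strands of 300-base windows that reach 50 bases past the start, CACGTG was in 6.42% of 33469 annotated promoters, CACGTT in 4.83%, TTATGTAA or TTACGTAA in 1.01%, and TAGGTCA or TGGGTCA in 6.6%, and no motif found shares a base with another. Of the 10 members, 9 had a window in the RefSeq table, 11 windows in all, Cry1 being the member without one. None of these letters was in the windows of Dbp, Per3, Npas2, Clock or Nr1d2, which says nothing of more distant sites.

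Library totals ran between 4604116 and 9707132 counts, so that 3 counts, taken as the floor of detection, were worth 0.309 to 0.652 CPM. Levels are given as CPM, counts per 1000000 counts of the library, after TMM scaling of all 70 libraries together. Ucp1, which defines brown fat, had a median of 6644 CPM in BAT, 0 CPM in SAT and 0 CPM in VAT, though it reached 360 CPM in female VAT sham. In a library of female BAT PCB 52 it was at only 115 CPM, where the median of that group was 6241 CPM. That library was kept in the main BAT results, and its part in them was not tested. Adipoq, an adipocyte hormone, was in every library at 326 CPM or more. Female SAT sham 8 stood apart, with 11108 genes detected against 13389 to 13586 in its 4 fellow libraries, 21.7% of its counts on ribosomal protein genes and 447 of 9189 widely expressed genes at 0, Bmal1 among them. In male VAT PCB 52 13, 234 of 349 expressed genes on chromosome 9 and 248 of 255 on chromosome X were at 0, among them Npas2 and Per2, whose 0 there is treated as not measured in the correlations. Xist was at 500 counts or more in 35 of 35 libraries of females and in 0 of 35 of males, while 1 female VAT sham library held 10 or more Y-linked counts and male VAT PCB 52 13 fewer than 10. Title numbers run over 24 rats and each keeps 1 sex and treatment, so equal numbers were read as 1 rat, which the labels do not state.

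Of the positive limb, Bmal1 and Clock were higher in BAT than in both other depots, and Npas2 was highest in SAT. In sham rats Bmal1 had a lowest, median and highest level of 6.81, 18.9 and 62.3 CPM in BAT (n = 12), 0, 9.65 and 11.7 CPM in SAT (n = 11) and 2.62, 6.41 and 12.97 CPM in VAT (n = 12). The BAT range reached far above the other depots but overlapped both, and without female SAT sham 8 the lowest SAT level was 2.35 CPM. By edgeR's quasi-likelihood test, with p-values adjusted over all genes by the Benjamini-Hochberg method, Bmal1 was higher in BAT than in SAT by 1.57 on the log2 scale (SE 0.38, adjusted p = 0.000582) and higher in BAT than in VAT by 1.73 (SE 0.37, adjusted p = 0.000206). SAT and VAT did not differ beyond their spread (0.16, SE 0.37, adjusted p = 0.765). Leaving out any 1 of 35 sham libraries gave 1.38 to 1.71 for BAT over SAT and 1.54 to 1.84 for BAT over VAT, each past the threshold of 0.05. In bulk tissue, fewer cells of a type and less RNA per cell cannot be told apart.

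Clock, the partner of BMAL1, was also higher in BAT, by smaller amounts. Its sham levels were 72.8, 98.0 and 130 CPM in BAT, 63.0, 75.5 and 104 CPM in SAT and 51.4, 71.0 and 86.6 CPM in VAT (lowest, median and highest). BAT exceeded SAT by 0.33 (SE 0.099, adjusted p = 0.00443, lost within males at 0.063) and VAT by 0.46 (SE 0.096, adjusted p = 0.000144) on the log2 scale, while SAT and VAT did not differ beyond their spread (0.13, SE 0.098, adjusted p = 0.27). Npas2, which can take the place of Clock, ran the other way and was highest in SAT. Its sham levels were 1.55, 2.27 and 18.7 CPM in BAT, 6.03, 8.82 and 16.5 CPM in SAT and 1.67, 3.90 and 8.41 CPM in VAT. Npas2 was lower in BAT than in SAT by a log2 change of -1.34 (SE 0.33, adjusted p = 0.000865) and higher in SAT than in VAT by 1.24 (SE 0.33, adjusted p = 0.00242). BAT and VAT did not differ beyond their spread (-0.10, SE 0.33, adjusted p = 0.823), and within females the SAT differences did not pass (adjusted p = 0.132 against BAT and 0.0741 against VAT). A single library, female BAT sham 12, held the 18.7 CPM, far above the others of BAT.

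Among the members that close the loop, Cry1 had levels in sham BAT above all those in sham SAT and VAT. Cry1, which encodes a repressor of the BMAL1 and CLOCK pair, had 34.0, 40.4 and 76.3 CPM in sham BAT, 4.39, 14.3 and 19.4 CPM in sham SAT and 13.4, 18.5 and 22.7 CPM in sham VAT. Every sham BAT library exceeded every sham SAT and VAT library, and the share of all genes separated in this way was not computed. The log2 differences were 1.71 for BAT over SAT (SE 0.18, adjusted p = 8.82e-10) and 1.31 for BAT over VAT (SE 0.17, adjusted p = 1.17e-07), and SAT over VAT missed the threshold at -0.40 (SE 0.17, adjusted p = 0.0609, and 0.0493 by DESeq2). In PCB 52 rats the Cry1 ranges overlapped, at 14.1 to 51.0 CPM in BAT, 7.68 to 30.5 CPM in SAT and 12.3 to 21.7 CPM in VAT. The 14.1 CPM lay in female BAT PCB 52, the group with the library low in Ucp1, where the median of Cry1 was 43.0 CPM. Male BAT PCB 52 had 31.6 to 42.9 CPM. Per2, whose protein joins CRY proteins in that repression, had 109, 150 and 219 CPM in BAT, 42.0, 110 and 149 CPM in SAT and 61.4, 98.5 and 143 CPM in VAT of sham rats. It was higher in BAT by 0.62 over SAT (SE 0.17, adjusted p = 0.00227) and by 0.63 over VAT (SE 0.17, adjusted p = 0.00225). The call against VAT was lost within females (adjusted p = 0.0922), and neither was made in PCB 52 rats (adjusted p = 0.26 against SAT and 0.121 against VAT). That fit holds male VAT PCB 52 13 with Per2 at 0, so the lack of a call cannot be read as a difference from sham rats. Per3, its relative, was lower in BAT, where it had 28.0, 68.0 and 95.5 CPM, against 3.07, 119 and 155 CPM in SAT and 77.9, 122 and 162 CPM in VAT. The 3.07 CPM came from female SAT sham 8, and without it the lowest sham SAT level was 63.8 CPM. The log2 change of Per3 was -0.69 for BAT over SAT (SE 0.27, adjusted p = 0.0296) and -0.88 for BAT over VAT (SE 0.27, adjusted p = 0.007). The 35 edgeR fits without 1 library gave -0.81 to -0.54 against SAT, with adjusted p-values of 5.99e-05 to 0.0883. The call was lost in 6 of them, the highest adjusted p being that without female SAT sham 6. It was also lost by limma voom (adjusted p = 0.313) and with the title number as a block (adjusted p = 0.0533). Both calls were lost within females (adjusted p = 0.424 and 0.165).

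The REV-ERB receptors differed between depots in different ways. Nr1d1 had 55.0, 91.3 and 203 CPM in sham BAT, 51.6, 114 and 300 CPM in sham SAT and 62.9, 188 and 451 CPM in sham VAT, ranges that overlapped throughout. It was lower in BAT than in VAT by a log2 change of -1.04 (SE 0.24, adjusted p = 0.000483) and lower in SAT than in VAT by -0.74 (SE 0.24, adjusted p = 0.0129), the SAT value being -0.23 within males (adjusted p = 0.614). BAT and SAT did not differ beyond their spread (-0.30, SE 0.24, adjusted p = 0.285). Nr1d2 was highest in SAT, with 46.4, 94.0 and 115 CPM in BAT, 146, 173 and 359 CPM in SAT and 78.8, 108 and 148 CPM in VAT of sham rats. Every sham SAT library exceeded every sham BAT library, at a log2 change of -1.09 for BAT over SAT (SE 0.15, adjusted p = 1.75e-07) and 0.84 for SAT over VAT (SE 0.15, adjusted p = 2.67e-05). The 359 CPM came from female SAT sham 8, and without it the highest sham SAT level was 234 CPM and the range still lay above that of sham BAT. The share of all genes separated in this way was not computed. In PCB 52 rats the Nr1d2 ranges overlapped, at 59.3 to 140 CPM in BAT and 102 to 218 CPM in SAT.

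Of the output factors, Dbp followed Nr1d1 in its order of depots and Tef showed no difference past the threshold. Dbp had 61.1, 154 and 290 CPM in sham BAT, 120, 251 and 397 CPM in sham SAT and 107, 305 and 595 CPM in sham VAT. It was lower in BAT than in VAT by a log2 change of -0.87 (SE 0.22, adjusted p = 0.00124), a call lost within males (adjusted p = 0.0648). BAT over SAT stood just outside the threshold at -0.50 (SE 0.22, adjusted p = 0.0506). It was past the threshold with the title number as a block (-0.64, adjusted p = 0.00537), by DESeq2 (adjusted p = 0.043), by limma voom (0.0351), in PCB 52 rats (0.000217) and in 10 of 35 fits without 1 library, and not within females (0.39) or males (0.0658). SAT over VAT was -0.38 (SE 0.22, adjusted p = 0.174). Tef had medians of 171, 218 and 185 CPM in sham BAT, SAT and VAT, with log2 differences of -0.19, -0.04 and 0.15 for BAT over SAT, BAT over VAT and SAT over VAT and adjusted p-values of 0.191, 0.825 and 0.337.

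In all, 4 members were called higher and 3 lower in BAT than in SAT, and likewise 4 higher and 3 lower in BAT than in VAT, while 2 were called higher and 1 lower in SAT than in VAT. These shares stood near the background, since 64.1%, 52.8% and 45.9% of all 12228 genes tested were called in the same 3 comparisons. By direction, 26.6% were higher and 37.5% lower in BAT than in SAT, 23.7% higher and 29.1% lower in BAT than in VAT, and 25.6% higher and 20.3% lower in SAT than in VAT. The median log2 difference of the members was -0.24, -0.07 and 0.07, beside -0.17, -0.12 and 0.06 over all genes. Skeletal muscle marker genes moved with the depots as well, and 11 of 12 listed were counted. Their summed level was 314 to 50932 CPM in BAT, 26.3 to 19060 CPM in SAT and 11.6 to 1036 CPM in VAT, where up to 6 of the 11 were at 0 in a library. Their part in the depot differences was not tested.

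The PCB 52 rats gave the same comparisons in libraries that the sham comparisons did not use. There 3 members were called higher and 5 lower in BAT than in SAT (background 65.8% of 12272 genes, 28.9% higher and 36.9% lower), 3 higher and 3 lower in BAT than in VAT (52.6%, 28.5% higher and 24% lower), and 2 higher and 2 lower in SAT than in VAT (52.5%, 32% higher and 20.5% lower). Bmal1 had 7.75, 13.98 and 33.4 CPM in BAT (n = 12), 3.24, 5.99 and 21.3 CPM in SAT (n = 12) and 1.42, 4.88 and 8.16 CPM in VAT (n = 11) of PCB 52 rats. It was again higher in BAT, by 1.12 over SAT (SE 0.25, adjusted p = 0.000283) and 1.66 over VAT (SE 0.27, adjusted p = 4.41e-06). Cry1 was higher in BAT by 1.32 over SAT (adjusted p = 1.02e-06) and 1.33 over VAT (adjusted p = 2.78e-06), and Clock by 0.50 (adjusted p = 0.000443) and 0.69 (adjusted p = 1.52e-05). Lower in BAT than in SAT were Npas2 (-1.88, adjusted p = 0.00012), Dbp (-0.75, adjusted p = 0.000217), Nr1d2 (-0.69, adjusted p = 5.73e-06), Nr1d1 (-0.55, adjusted p = 0.0092) and Per3 (-0.50, adjusted p = 0.0085). Lower in BAT than in VAT were Dbp (-1.22, adjusted p = 4.27e-07), Nr1d1 (-1.08, adjusted p = 1.29e-05) and Per3 (-0.65, adjusted p = 0.00177). In SAT over VAT, Npas2 (2.28, adjusted p = 3.19e-05) and Nr1d2 (0.44, adjusted p = 0.00243) were higher, and Nr1d1 (-0.53, adjusted p = 0.0162) and Dbp (-0.47, adjusted p = 0.0189) lower. The Npas2 value comes from a fit that holds male VAT PCB 52 13, where Npas2 had no read, so its size beside the sham value cannot be read as a difference. Per2 was not called in PCB 52 rats, at 0.44 for BAT over SAT (SE 0.34, adjusted p = 0.26) and 0.65 for BAT over VAT (SE 0.36, adjusted p = 0.121), in a fit that holds male VAT PCB 52 13 with Per2 at 0. The plot of log2 differences between depots sets both treatments side by side.

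**Figure D1:**
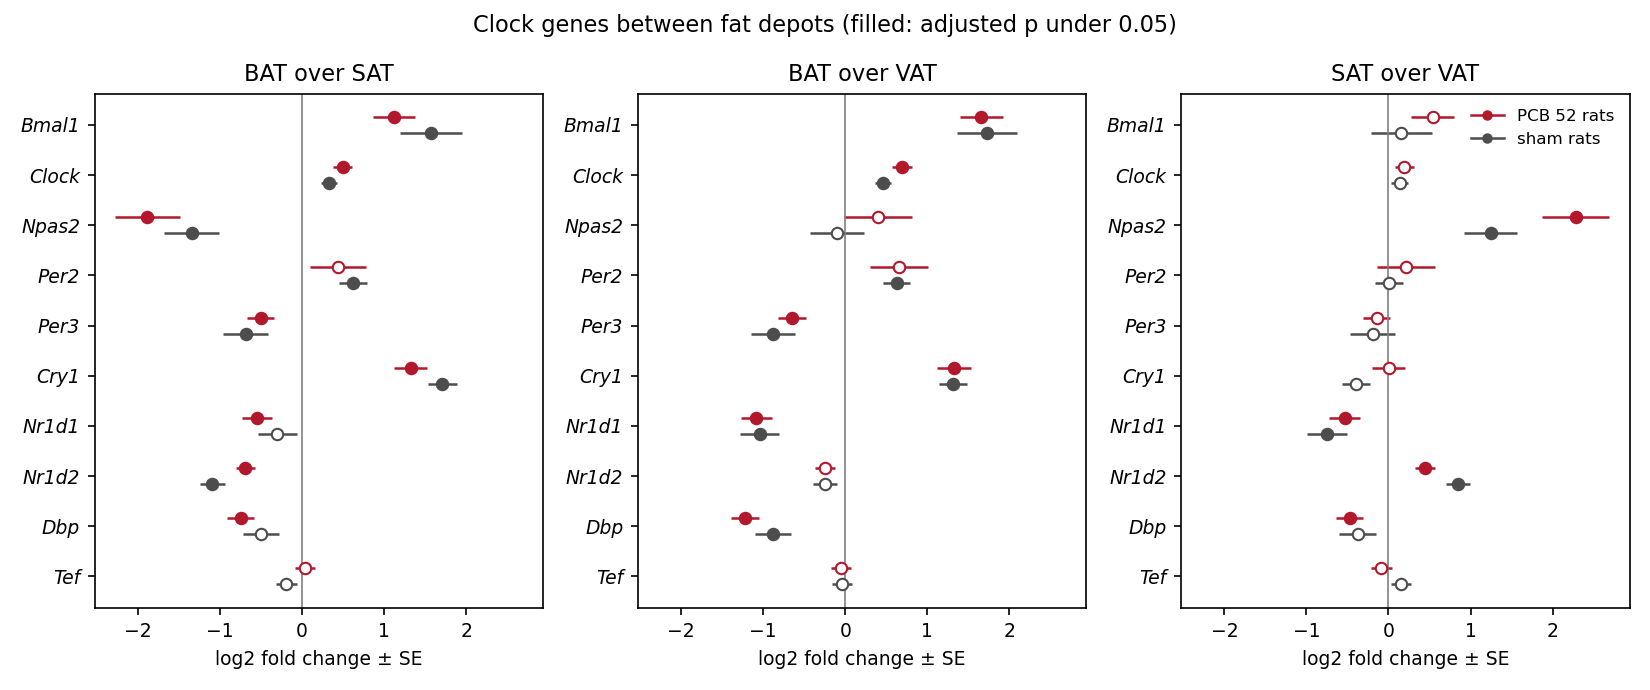
Log2 fold change ± SE of each clock gene between 2 fat depots, for BAT over SAT, BAT over VAT and SAT over VAT, fitted in PCB 52 rats (red, upper point of each pair) and in sham rats (grey, lower point). Filled points have an adjusted p under 0.05, as Bmal1 and Cry1 do to the right of 0 and Per3 does to its left in BAT over both other depots in both treatments.

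Other genes of the clock, from a list of 19 of which 15 were counted and 14 passed the expression filter, were called between depots in shares below and above those of all genes. In sham rats 7 of 14 were called in BAT over SAT, 9 in BAT over VAT and 3 in SAT over VAT, beside the 64.1%, 52.8% and 45.9% of all genes. By direction, 6 of 14 were called higher and 1 lower in BAT than in SAT, 6 higher and 3 lower in BAT than in VAT, and 0 higher and 3 lower in SAT than in VAT. Noct, which encodes nocturnin, a rhythmic protein of the deadenylase family, had a median of 253 CPM in BAT, 9.75 CPM in SAT and 19.3 CPM in VAT, with log2 differences of 5.01 for BAT over SAT (SE 0.23, adjusted p = 9.56e-18) and 3.64 for BAT over VAT (SE 0.20, adjusted p = 1.79e-15). Nfil3, a repressor that competes with DBP and TEF for D-boxes, had medians of 95.8, 5.12 and 6.49 CPM in BAT, SAT and VAT and differed by 3.93 (SE 0.28) and 3.70 (SE 0.26), with adjusted p-values of 1.56e-13 and 3.54e-13. Usp2, a rhythmic deubiquitinase, was higher in BAT by 2.30 and 2.43, and Nampt, the enzyme that limits NAD salvage, by 1.962 and 2.10. Bhlhe40, a repressor of the same E-boxes, was higher in BAT than in SAT and VAT by 0.87 and 1.26, and Ciart was higher in BAT than in SAT by 0.87. Csnk1d, a kinase of PER proteins, was higher in BAT than in VAT by 0.17. Lower in BAT were Timeless (-1.25 against SAT and -0.72 against VAT), Btrc, which targets PER proteins for degradation (-0.50 against VAT), and Cry2 (-0.30 against VAT). In SAT over VAT, Noct (-1.37), Btrc (-0.37) and Cry2 (-0.31, lost without female VAT sham 4 and 8, adjusted p = 0.0526) were lower. The highest adjusted p among these calls was 0.0434, for Csnk1d.

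**Figure D2:**
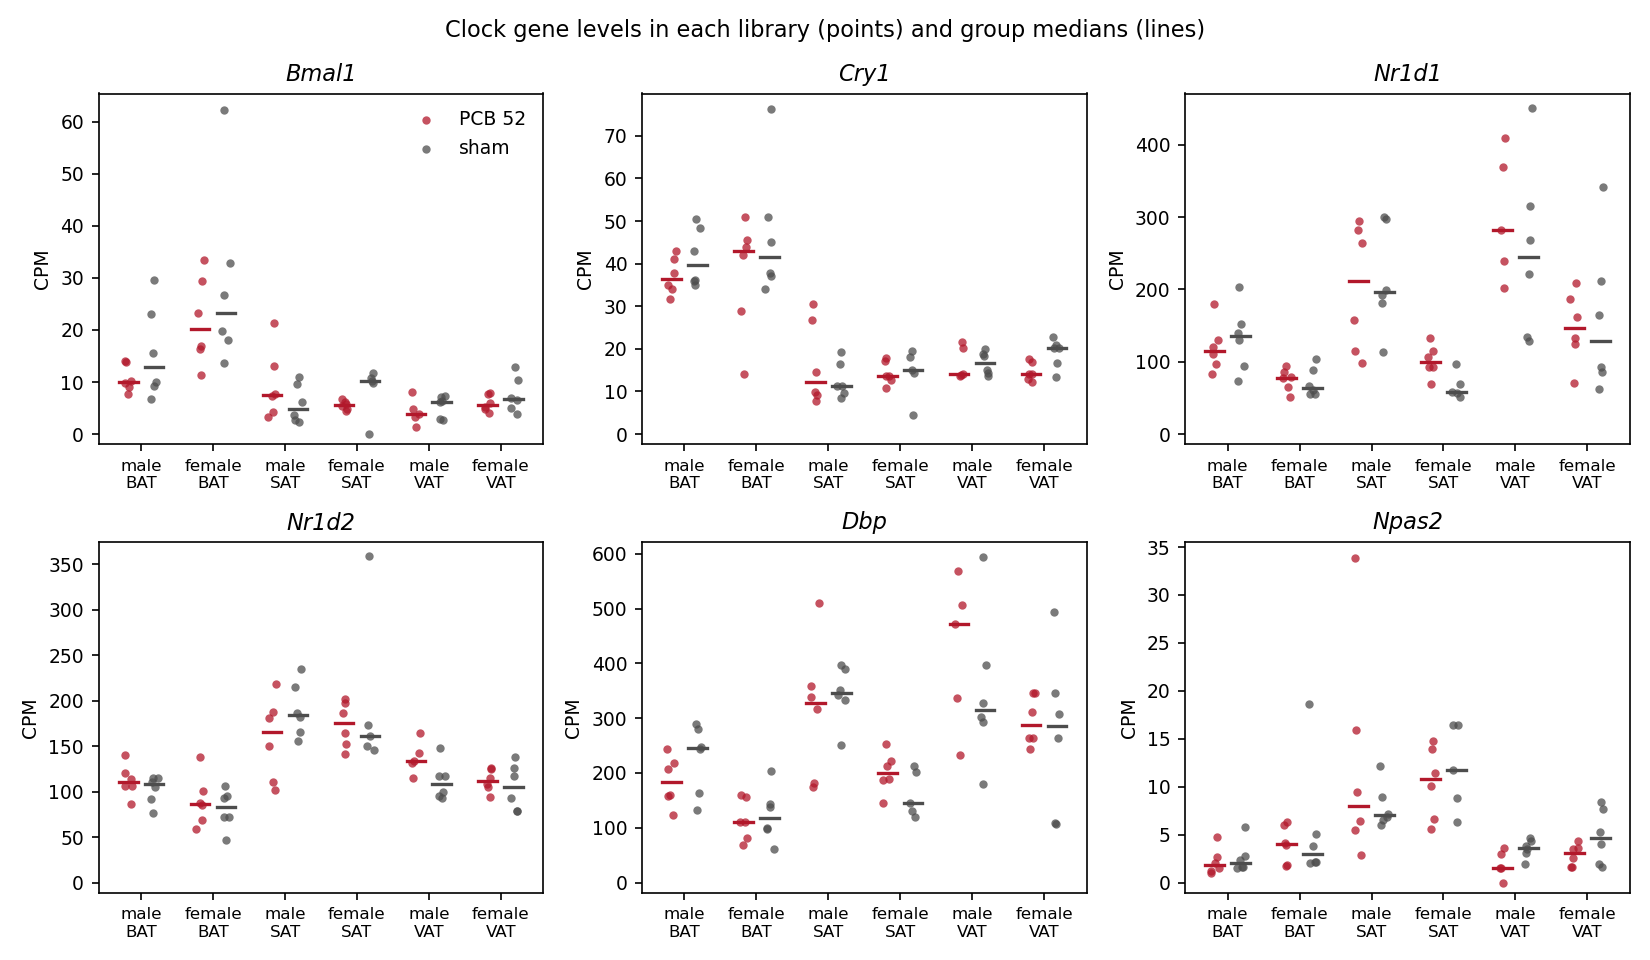
Level in CPM of 6 clock genes in each library, by sex and depot, with PCB 52 libraries in red to the left of sham libraries in grey and a line at each group's median. Bmal1 and Cry1 are high in BAT, Nr1d2 and Npas2 in SAT, Nr1d1 in males more than females of SAT, and PCB 52 and sham points overlap in every group.

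Males differed from females in 2 members, both in SAT of sham rats. In sham SAT, Nr1d1 had 114, 196 and 300 CPM in males (lowest, median and highest of 6) and 97.0, 69.7, 56.6, 51.6 and 58.6 CPM in females 2, 6, 8, 10 and 12. Every male exceeded every female. The log2 difference of males over females was 1.72 (SE 0.31, edgeR adjusted p = 0.00388), and it stayed between 1.597 and 1.85 in 23 fits without 1 library, with adjusted p-values up to 0.0133. In 12 of these fits the library left out was of PCB 52 rats and so outside the groups compared. Dbp had 251, 346 and 397 CPM in males and 120, 146 and 213 CPM in females of sham SAT, again without overlap. Its difference was 1.12 (SE 0.25, edgeR adjusted p = 0.012), between 0.98 and 1.24 without 1 library, with adjusted p-values up to 0.0306. These 2 of 10 members stood beside 8.02% of all genes called in sham SAT, 2.39% being higher in males. The share of all genes whose levels did not overlap between the sexes was not computed.

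In BAT and VAT of sham rats edgeR called no member between the sexes, where it called 0.0725% and 17.9% of all genes. At an unadjusted p under 0.05 there were 4 members in BAT (Nr1d1, Dbp, Bmal1 and Npas2) and 0 in VAT, beside 6.23% and 31.4% of all genes, and DESeq2 called Nr1d1 in BAT. Nr1d1 averaged 132 ± 45.7 CPM in males and 71.6 ± 19.9 CPM in females of BAT (SD, n = 6 each), a log2 difference of 0.88 (SE 0.22, edgeR adjusted p = 0.211, DESeq2 adjusted p = 0.038). In VAT it averaged 253 ± 121 CPM in males and 160 ± 105 CPM in females, at 0.67 (SE 0.37, edgeR adjusted p = 0.227). Dbp differed by 0.87 in BAT (SE 0.26, adjusted p = 0.391) and 0.37 in VAT (SE 0.32, adjusted p = 0.462). Bmal1 did not pass either, at -0.88, -0.50 and -0.48 in BAT, SAT and VAT, with adjusted p-values of 0.675, 0.634 and 0.384. Over the 10 members the median male over female difference was 0.11 in BAT, 0.25 in SAT and 0.02 in VAT, beside -0.01, 0.00 and 0.02 over all genes.

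In PCB 52 rats edgeR called no member between the sexes (background 0.0453% of genes in BAT, 2.1% in SAT and 6.58% in VAT). The sham and PCB 52 contrasts compare different libraries but come from 1 fit of the 4 groups of a depot. They share its filter and dispersion, so they are not independent. At an unadjusted p under 0.05 there were 4 members in BAT, 2 in SAT (Nr1d1 and Dbp) and 3 in VAT (Nr1d1, Per3 and Tef), beside 4.8%, 16.7% and 22.4% of all genes. Nr1d1 in SAT had 98.1, 211 and 294 CPM in males and 69.7, 99.6 and 133 CPM in females, ranges that overlapped, and differed by 1.01 (SE 0.29, adjusted p = 0.0675). Its differences in BAT and VAT of PCB 52 rats were 0.68 (SE 0.22, adjusted p = 0.562) and 1.04 (SE 0.39, adjusted p = 0.111). Dbp differed by 0.65 in SAT (SE 0.23, adjusted p = 0.15). No member's sex difference was shown to differ between treatments, the interaction of Nr1d1 in SAT being -0.71 (SE 0.41, adjusted p = 0.818) and the lowest adjusted p of any member in SAT also 0.818.

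Nr1d1 shares its last bases with Thra, the thyroid hormone receptor alpha gene, on the other strand, and the RefSeq table has the pair overlapping by 1061 bases. Whether strand was used in counting is not given in the sources used here, so reads of the overlap may belong to either gene. Thra averaged 140 ± 40.7 CPM in males (n = 6) and 88.5 ± 9.78 CPM in females (n = 5) of sham SAT. Tissue markers also moved with sex in SAT. The summed level of 8 mammary epithelium genes was 9.90 to 271477 CPM in male sham SAT (median 78091), with up to 3 of the 8 at 0. In female sham SAT it was 5107 to 25552 CPM (median 17197), with none at 0. That of 6 adipocyte genes was 2304 to 20856 CPM in male and 3123 to 65587 CPM in female sham SAT. Its median was higher in males, 17676 CPM against 5988 CPM in females. The part of either in the Nr1d1 and Dbp differences was not tested.

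Among the other clock genes, 1 of 14 was called between the sexes in sham SAT, 3 of 13 in sham VAT and 0 of 13 in sham BAT, beside 8.02%, 17.9% and 0.0725% of all genes. Ciart, a repressor of the BMAL1 and CLOCK pair, was higher in male than in female SAT of sham rats by 2.26 (SE 0.54, adjusted p = 0.0167) and of PCB 52 rats by 2.33 (SE 0.50, adjusted p = 0.0172). Its levels were 4.73, 9.30 and 11.04 CPM in males and 0.837, 1.85 and 2.83 CPM in females of sham SAT. In sham VAT, Nampt (-1.89, SE 0.27), Noct (-1.83, SE 0.26) and Nfil3 (-1.18, SE 0.29) were lower in males, with adjusted p-values of 7.93e-05, 7.93e-05 and 0.00776. In VAT of PCB 52 rats, Nfil3 (-1.50, adjusted p = 0.00565) and Nampt (-1.11, adjusted p = 0.0187) were lower in males, Cry2 was higher (0.48, adjusted p = 0.0251), and Noct was not called (-0.33, adjusted p = 0.498). Brown adipocyte markers moved with these genes in sham VAT, where Ucp1 was at 0 CPM in all 6 males and had 0, 6.82 and 360 CPM in females (lowest, median and highest), against 0.476 CPM or less in males and 0.137 CPM or less in females of PCB 52 VAT. The summed level of the 6 markers counted, of 7 listed, was 34.6 to 106 CPM in male sham VAT, with up to 3 at 0, and 44.6 to 629 CPM in female sham VAT, with up to 2 at 0. The highest sums were 629 CPM in female VAT sham 4 and 335 CPM in female VAT sham 8, the library with Y-linked counts, which also held the highest skeletal muscle sum of VAT (1036 CPM). Without these 2 libraries Nampt (-1.49, adjusted p = 0.000256), Noct (-1.33, adjusted p = 0.000296) and Nfil3 (-1.11, adjusted p = 0.0349) were still lower in males, and no call of a member changed in the depot comparisons of sham rats or in the comparisons within VAT.

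**Figure D3:**
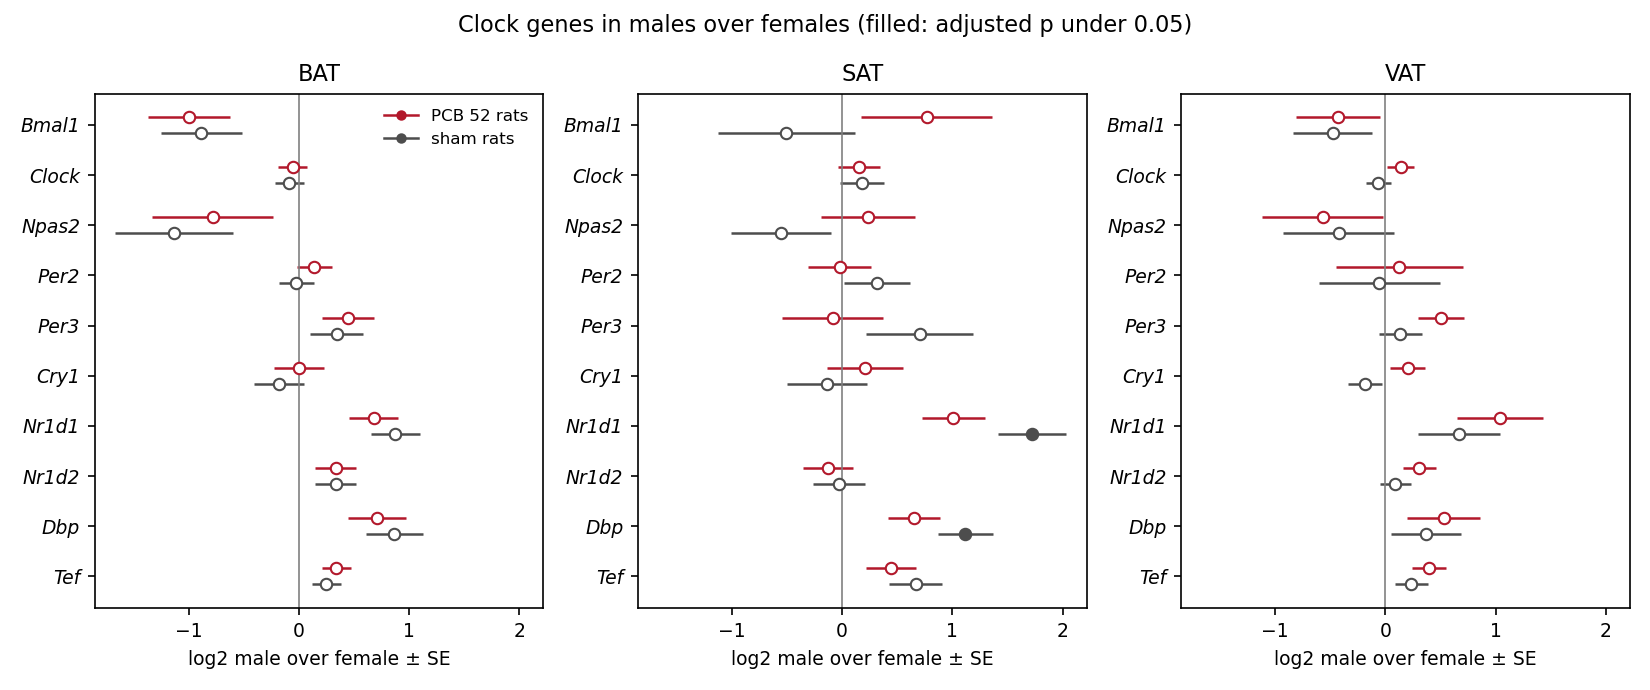
Log2 difference ± SE of males over females for each clock gene in BAT, SAT and VAT. The contrasts in PCB 52 rats (red, upper point) and in sham rats (grey, lower point) come from 1 fit per depot. The only filled points, with an adjusted p under 0.05, are Nr1d1 (1.72) and Dbp (1.12) in sham SAT, and Nr1d1 lies to the right of 0 in all 6 contrasts.

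PCB 52 changed no member past the threshold in any sex and depot. This matched the whole series, where edgeR called 0 genes (0%) in each of the 6 comparisons of PCB 52 with sham, while 388 genes (3.63%) in female BAT, 605 (5.12%) in female SAT, 1066 (9.57%) in female VAT, 1054 (9.86%) in male BAT, 165 (1.44%) in male SAT and 715 (6.3%) in male VAT had an unadjusted p under 0.05. DESeq2 called 37 genes in female VAT, 14 in male BAT, 2 in male VAT and 0 in the other 3. Levels of PCB 52 and sham rats did not overlap in 0 of 60 comparisons of a member within a sex and depot, beside 0.344% of the 67156 comparisons of all genes tested. Bmal1 in female SAT overlapped only through the 0 of female SAT sham 8, and without it 1 of 10 members, Bmal1, did not overlap there, beside 0.372% of genes.

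Bmal1 shows the size of the spread. In BAT it had 11.4, 20.1 and 33.4 CPM in female PCB 52 rats and 13.6, 23.3 and 62.3 CPM in female sham rats, and 7.75, 9.95 and 14.04 CPM in male PCB 52 rats against 6.81, 12.8 and 29.7 CPM in male sham rats. Its log2 change was -0.43 (SE 0.36) in females, -0.53 (SE 0.33) in males and -0.48 (SE 0.26, edgeR adjusted p = 0.525) over both sexes. In SAT it was at 4.41, 5.59 and 6.67 CPM in female PCB 52 rats, against 10.8, 11.7, 0, 10.2 and 9.89 CPM in female sham rats 2, 6, 8, 10 and 12. All 4 sham levels other than that of rat 8 lay above all 6 PCB 52 levels, and with rat 8, where Bmal1 had no read, the log2 change was -0.63 (SE 0.64, edgeR adjusted p = 0.896). Without that library the change was -0.93, with an adjusted p of 1. In male SAT it had 3.24, 7.50 and 21.3 CPM with PCB 52 and 2.35, 4.90 and 11.04 CPM with sham, a change of 0.65 (SE 0.52). In VAT the change was -0.38 (SE 0.28) in females and -0.32 (SE 0.42) in males.

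With 10 members in each of 6 comparisons, 2 of the 60 had an unadjusted p under 0.05. Nr1d1 had 69.7, 99.6 and 133 CPM in female SAT of PCB 52 rats and 97.0, 69.7, 56.6, 51.6 and 58.6 CPM in that of sham rats, a log2 difference of 0.59 (SE 0.21, unadjusted p = 0.0186, edgeR adjusted p = 0.768). Cry1 had 12.3, 14.01 and 17.7 CPM in female VAT of PCB 52 rats and 13.4, 20.2 and 22.7 CPM in that of sham rats, a log2 difference of -0.39 (SE 0.14, unadjusted p = 0.0145, edgeR adjusted p = 0.479). Over both sexes, where 853 genes (7.31%) in VAT had an unadjusted p under 0.05, the log2 difference of Npas2 in VAT was -0.81 (SE 0.37, unadjusted p = 0.0407, edgeR adjusted p = 0.65), with 1.63, 3.04 and 4.32 CPM in female PCB 52 rats and 1.67, 4.62 and 8.41 CPM in female sham rats. In male VAT, Npas2 had a highest level of 3.65 CPM with PCB 52 and 4.62 CPM with sham, and the fit, at -0.89 (SE 0.60), holds male VAT PCB 52 13 with no read. None of these passed the adjustment.

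The other members had no unadjusted p under 0.05, and their log2 changes with PCB 52 are summarised by range. Over the 10 members the changes ran between -0.55 and 0.15 in female BAT, -0.63 and 0.59 in female SAT, -0.74 and 0.11 in female VAT, -0.53 and 0.27 in male BAT, -0.34 and 0.65 in male SAT and -0.89 and 0.30 in male VAT. The 6 medians lay between -0.16 in female VAT and 0.11 in male VAT, beside medians over all genes between -0.03 and 0.03. Per2 in male VAT had a log2 difference of -0.09 with an SE of 0.84, the widest of any member, and the fit holds male VAT PCB 52 13 at 0 beside 93.0 to 133 CPM in the other 4 PCB 52 libraries. Neither the interaction of sex and PCB 52 nor that of depot and PCB 52 was called for any member, where edgeR called 0 genes (0%) in each of the 4 tests, with 266, 792 and 1243 genes at an unadjusted p under 0.05 in BAT, SAT and VAT and 721 across depots. The lowest adjusted p of a member was 0.508 in the sex tests and 0.914 in the depot test. Of the other clock genes, 0 of 13 or 14 tested were called with PCB 52. At an unadjusted p under 0.05 there were 4 of 13 in female BAT (3.63% of all genes), 4 of 13 in female VAT (9.57%) and 2 of 13 in male BAT (9.86%). There were 1 of 13 in male SAT (1.44%), 1 of 13 in male VAT (6.3%) and 0 of 14 in female SAT (5.12%). Over both sexes there were 5 of 13 in BAT (10.8%), 0 of 14 in SAT (4.11%) and 0 of 13 in VAT (7.31%). Whatever their p, 11 of 13 had a log2 change below 0 in female BAT, 11 of 13 in female VAT and 10 of 13 in male BAT. In male SAT, male VAT and female SAT 6 of 13, 4 of 13 and 8 of 14 did.

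**Figure D4:**
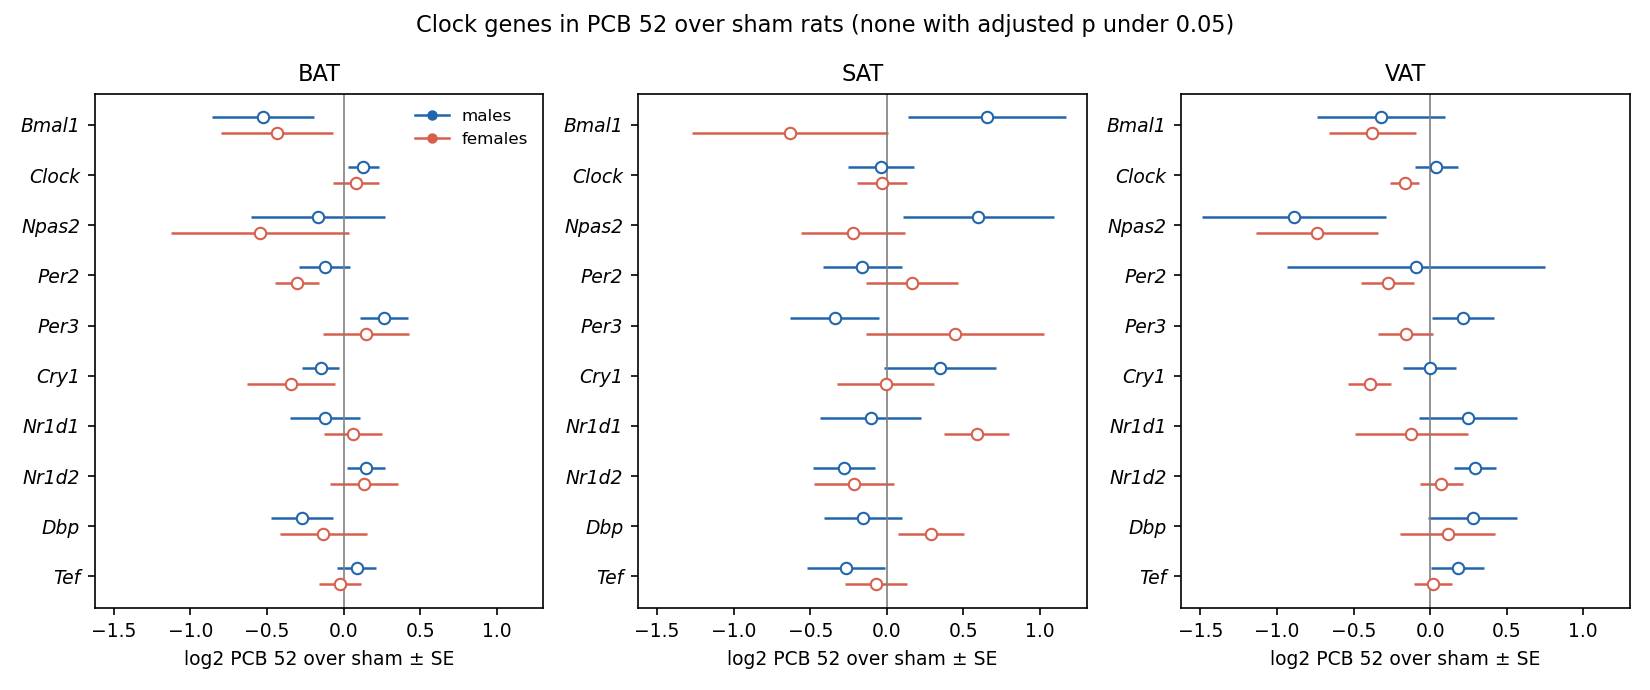
Log2 change ± SE of PCB 52 over sham for each clock gene in BAT, SAT and VAT, in males (blue, upper point) and females (red, lower point). All points are open because no member passed an adjusted p of 0.05, and the bars are longest for Per2 in male VAT, Bmal1 in female SAT and Npas2 in male VAT.

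Rats of 1 group differed more in Bmal1 than in most genes. After group means were removed, and without the 2 libraries that stand apart, the SD of log2 CPM was 0.65 in BAT, 0.70 in SAT and 0.58 in VAT for Bmal1, above that of 86.7%, 75.8% and 87.2% of genes. Npas2 varied by 0.85, 0.76 and 0.64, at a median of 13, 63.5 and 26.5 counts a library, against 81.5, 54 and 41.5 for Bmal1. Nr1d1 and Dbp varied most in VAT, by 0.70 and 0.59. Clock varied least of the members in every depot but SAT, with an SD of 0.23, 0.32 and 0.18, and Nr1d2 had the smallest SD in SAT, 0.29.

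Members varied together among rats. Correlations were taken over libraries of 1 depot on deviations from group means of log2 CPM, with two-sided permutation p-values from 100000 resamples within groups, unadjusted for the 27 relations with Bmal1 and with a smallest possible value of 1e-05. The values of a pair come from 1 library, so they share its depth and tissue make-up. In BAT (n = 24), Bmal1 varied inversely with Tef (r = -0.87, rho = -0.84), Per3 (-0.86, -0.84), Nr1d2 (-0.84, -0.86), Dbp (-0.83, -0.79) and Nr1d1 (-0.59, -0.60), at p-values of 2e-05, 1e-05, 1e-05, 2e-05 and 0.00642. It varied with Clock (r = 0.79, p = 0.00021), Cry1 (0.67, p = 0.00031), Npas2 (0.60, p = 0.00567) and Per2 (0.56, p = 0.0161), with a rho of 0.76, 0.62, 0.50 and 0.49. Without the BAT libraries of sham rats 12 and 11, the farthest from the median of Bmal1, the 5 negative values lay between -0.54 and -0.83 and those of Clock and Cry1 were 0.70 and 0.57, while those of Npas2 and Per2 were 0.29 and 0.34. Those 2 relations thus weakened without these 2 libraries. In the groups that hold neither library, r of Npas2 and Per2 was 0.79 and 0.56 in female PCB 52 rats and 0.10 and -0.03 in male PCB 52 rats. Within each of the 4 groups of sex and treatment the 5 negative relations kept their sign, between -0.98 and -0.21, except Nr1d1 in male PCB 52 rats (0.35).

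VAT gave the same signs for the members that ran against Bmal1 in BAT. There (n = 23) r was -0.84 for Dbp (rho -0.90), -0.83 for Tef (-0.87), -0.82 for Nr1d2 (-0.81), -0.73 for Per3 (-0.81) and -0.66 for Nr1d1 (-0.65), with permutation p-values between 1e-05 and 0.00106. All 5 stayed between -0.69 and -0.87 without rats 13 and 19. In each of the 4 groups of sex and treatment, r with Bmal1 in VAT was negative for all 5 genes, between -0.42 and -0.98. Clock varied with Bmal1 (r = 0.52, rho = 0.60, p = 0.0351), though at 0.36 without rats 13 and 19. Cry1 did not follow Bmal1 in VAT (r = 0.00, rho = -0.04, p = 1), nor did Npas2 (-0.09, p = 0.713) or Per2 (-0.23, p = 0.306), the last 2 over 22 libraries. Whether these differ from the BAT values was not tested.

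In SAT the pattern turned on 1 library. With all 23 libraries r with Bmal1 was 0.80 for Cry1 (rho 0.75, p = 0.00153), 0.69 for Per3 (0.25, p = 0.18), -0.71 for Nr1d2 (-0.57, p = 0.0219), -0.49 for Tef (-0.44, p = 0.0364), -0.40 for Dbp (-0.42, p = 0.0735) and -0.32 for Nr1d1 (-0.45, p = 0.119). Several of these moved without female SAT sham 8, where Bmal1 had no read. Then r was 0.68 for Cry1, -0.40 for Per3, -0.37 for Nr1d2, -0.30 for Tef, -0.40 for Dbp and -0.76 for Nr1d1, the Nr1d1 relation then having a permutation p of 0.00112. Without rats 8 and 19, the farthest from the median of Bmal1, r was 0.56 for Cry1, -0.72 for Nr1d1, -0.14 for Nr1d2 and -0.03 for Tef. In SAT the mammary epithelium sum ran between 9.90 and 302972 CPM over libraries, against 0.886 to 6.98 CPM in BAT, and its part in these values was not tested.

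**Figure D5:**
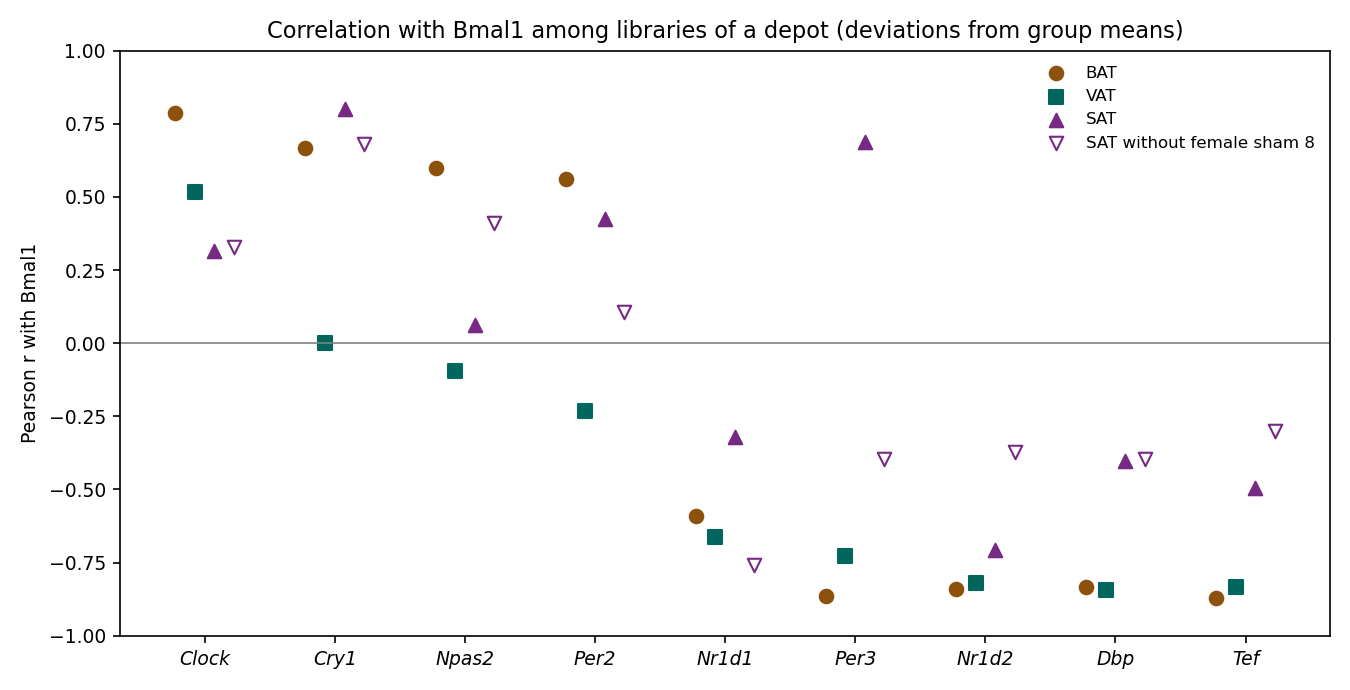
Pearson r of each clock gene with Bmal1 over libraries of 1 depot, on deviations from group means of log2 CPM, for BAT (circles, n = 24), VAT (squares, n = 23, or 22 for Npas2 and Per2) and SAT with all 23 libraries (filled triangles) or without female SAT sham 8 (open triangles). Per3, Nr1d2, Dbp and Tef lie at -0.73 or lower in BAT and VAT, Nr1d1 at -0.59 and -0.66, and the SAT values move when 1 library is left out.

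Ranked over 10741 genes by the mean of r with Bmal1 over the 3 depots, without male VAT PCB 52 13, Nr1d2 was the lowest of all (-0.79), Tef the third lowest (-0.72), Dbp the fourth (-0.69), Nr1d1 in place 55 (-0.55) and Per3 in place 1085 (-0.29). The 5 lowest genes outside the members were Lrp3 (-0.73), Hid1 (-0.66), Hrh3 (-0.66), Map7d1 (-0.64) and Kcnh2 (-0.63). The 5 highest were Srsf10 (0.71), Mtpn (0.70), Ubqln1 (0.70), Dnajb1 (0.68) and Ago3 (0.68). Cry1, Clock, Per2 and Npas2 had 0.52, 0.51, 0.25 and 0.19, in places 10615, 10562, 8761 and 7990 from the low end. The order also moved without female SAT sham 8. The 5 lowest genes outside the members were then Kcnh2 (-0.73), Lrp3 (-0.73), Cpeb1 (-0.72), Abcd2 (-0.71) and Slc1a5 (-0.70), the 5 highest were Hspa8 (0.68), Klhl25 (0.67), Sphk2 (0.66), Adam17 (0.64) and Dnajb1 (0.64), and Nr1d1, Dbp, Nr1d2, Tef and Per3 took places 9, 11, 13, 25 and 29 from the low end. Clock, Cry1, Npas2 and Per2 then took places 10657, 10593, 9586 and 7399 from the low end. Hspa8 and Dnajb1 encode heat shock chaperones. Lrp3, Kcnh2 and Dnajb1 were among the 5 in both rankings.

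Nr1d1 was the member whose level in a rat was correlated between most depots. Between depots of the same title number, on deviations from group means, r of Nr1d1 was 0.53 for BAT and SAT (rho 0.55, p = 0.0223, n = 23), 0.51 for BAT and VAT (rho 0.49, p = 0.0231, n = 23) and 0.39 for SAT and VAT (rho 0.41, p = 0.0611, n = 22). These are two-sided permutation p-values of r, unadjusted for the 30 relations of 10 members and 3 pairs of depots. Without the 2 rats farthest from the median the first 2 values were 0.52 and 0.50. Without male VAT PCB 52 13, 1, 2 and 0 of the members had an r of 0.5 or more in BAT and SAT, BAT and VAT, and SAT and VAT, against 1.71%, 3.39% and 2.98% of all genes. Without female SAT sham 8 as well, 1, 2 and 1 did, against 2.17%, 3.39% and 3.33%.

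Between BAT and VAT, 3 more members were correlated at an unadjusted p of r under 0.05. There r was 0.51 for Nr1d2 (rho 0.53, p = 0.0209, and 0.55 without 2 rats), 0.49 for Bmal1 (rho 0.46, p = 0.0207) and 0.45 for Per3 (rho 0.28, p = 0.0421). Bmal1 and Per3 did not hold without the 2 farthest rats, at 0.35 and 0.17, rats 12 and 11 for Bmal1 and 12 and 20 for Per3. The remaining relations had permutation p-values above 0.05 with all libraries, and Cry1 between SAT and VAT was 0.32 (p = 0.25) with all libraries and 0.65 (p = 0.0145) without female SAT sham 8 and male VAT PCB 52 13. A test of the rat over all 3 depots at once, edgeR's F test on the title numbers added to the group means, called 124 of 12616 genes (0.983%). Nr1d1 was the 1 member among them (adjusted p = 0.0484), and the other 9 had adjusted p-values of 0.495 to 1. That call was lost in 23 of 28 fits that left out 1 rat or library, with an adjusted p of up to 0.164, reached without rat 11.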

How the data were processed

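The authors deposited 6 tables, each of 1 sex and depot, with counts of reads per gene under NCBI gene numbers. The female VAT table was treated as deposited estimated counts (expected counts), because 5 lines under its genes hold spreadsheet values of which 3 are not whole; its gene lines are whole, and rounding changed none. FastQC, HISAT2 and the build rn6 are named per the submitters' processing notes, without versions or roles. No source used here gives the counting tool, its strand setting or the annotation. Per the labels' protocols, about 100 mg of tissue was extracted, RNA with an integrity number under 8 was left out, and mRNA was enriched by poly(A) capture or by removal of ribosomal RNA, without saying which.

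Gene numbers were matched to rat symbols in a RefSeq table (GRCr8), 15230 of 15319 with a match. Groups came from the tissue, sex and treatment labels and the title numbers, and no column was left unused. Of 170 pairs of libraries within a group, 0 were identical, the lowest chi-square per gene being 7.33. No label says that replicates are separate animals, so p-values measure the spread between these libraries.

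Comparisons used edgeR 4.0.16 in R 4.3.3 (TMM scaling, filterByExpr, robust quasi-likelihood fits), and p-values were adjusted by Benjamini and Hochberg's method over all genes tested, at a threshold of 0.05. SEs were derived from the log2 fold change and F. PCB 52 and sham libraries of 1 sex and depot were compared, then those of both sexes, then the interaction of PCB 52 with sex or depot; males with females within each depot in 1 fit of its 4 groups; depots in sham rats with sex as a covariate. The comparisons of sexes and depots in PCB 52 rats, values without the 2 libraries that stand apart, and those without the female VAT sham libraries with the most Ucp1, were added after the data were seen. Alternatives were RLE scaling, no filter, limma 3.58.1 voom, DESeq2 1.42.0, other groups in the fit, a replicate block and leaving out each library. Correlations used log2 CPM with a prior count of 2. The tests were tried on simulated data. Depth sets the precision for low genes, and a floor of 3 counts covers counting error only.

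All 10 members are described. Other clock genes are named where called, 1 gene of their list is not reported here and stands in none of the list's counts, and the 5 highest and 5 lowest genes by mean r with Bmal1 are named. The members, gene lists and tests were chosen with earlier results of these data known.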

Additional observations from a re-analysis of the deposited data

Results flagged for a closer look

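Of 120 groups of a member, 6 held a library whose level stood apart from the rest of its group by Dixon's criterion, which chance meets in about 1 of 20. Female SAT sham 8 accounted for 3 of them, with Bmal1 at 0 CPM against 9.89 to 11.7 CPM in the other 4 libraries, Nr1d2 at 358.6 CPM against 146 to 173 CPM, and Tef at 239.2 CPM against 131 to 154 CPM. In the same library 447 of 9189 widely expressed genes had no read and 21.7% of counts fell on ribosomal protein genes. Npas2 was at 18.7 CPM in female BAT sham 12, against 2.07 to 5.11 CPM in the others, and at 5.76 CPM in male BAT sham 11, against 1.55 to 2.72 CPM. These 2 libraries also had the highest Bmal1 of their groups, 62.3 and 29.7 CPM. Per2 was at 191.2 CPM in male SAT PCB 52 17, against 67.2 to 98.1 CPM in the others. The cause of none of these was tested.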

How the results depend on the processing

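DESeq2 called 85 genes for PCB 52 over both sexes in BAT, 9 over both sexes in VAT, 37 in female VAT, 14 in male BAT, 2 in male VAT and 12 for its interaction with sex in VAT, where edgeR called 0, and it called 43 and 1495 genes between the sexes in sham BAT and SAT. Between the sexes, limma voom called 355 genes in sham SAT, and edgeR in PCB 52 rats called 5, 255 and 768 genes in BAT, SAT and VAT. Within females 3011 genes were called in BAT over VAT, and within males 2667 in SAT over VAT. Without female VAT sham 4 and 8, 1224 genes were called between the sexes in sham VAT. The rat term called 300 genes with limma voom and 194 without female SAT sham 8 and male VAT PCB 52 13. Members correlated between depots at an unadjusted p under 0.05 numbered 2 for BAT and VAT (against 4) and 1 for SAT and VAT (against 0) without the 2 farthest rats, and 1 for SAT and VAT without those 2 libraries. Without the 2 farthest, 1 member was correlated with Bmal1 in SAT. Leaving out 1 library gave 0 to 11 genes for PCB 52 in BAT and 0 to 2 in VAT over both sexes, 0 to 1 in male BAT, 0 to 3 for the interaction in VAT, 6 to 13 between the sexes in BAT, 433 (without male SAT sham 5) to 1396 (without male SAT PCB 52 19) in SAT, and 80 (without rat 11) to 166 (without female SAT sham 8) for the rat term.

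Directions turned only where neither value was called. With limma voom, the Bmal1 change with PCB 52 in female SAT was 0.0086, and SAT over VAT was -0.16 for Bmal1 and -0.069 for Per2. In PCB 52 rats, Bmal1 was 0.77 for male over female SAT, Cry1 0.0030 and Tef -0.085 for SAT over VAT, Npas2 0.40 for BAT over VAT and Tef 0.034 for BAT over SAT. Within females, Npas2 was 0.25 for BAT over VAT, Nr1d1 0.092 for BAT over SAT, and Per2 -0.16 and Tef -0.034 for SAT over VAT. Within males, Per3 was 0.082 for SAT over VAT and Tef 0.054 for BAT over VAT, and Tef was 0.015 for BAT over VAT with no filter. Without female VAT sham 4 and 8, BAT over VAT was 0.014 for Npas2 and 0.026 for Tef. Leaving out 1 library gave -0.18 to 0.15 for Bmal1 with PCB 52 in SAT over both sexes, -0.28 to 0.23 for Per2 with PCB 52 in male VAT, -0.53 to 0.018 for Npas2 and -0.084 to 0.021 for Tef in BAT over VAT, and -0.086 to 0.11 for Per2 in SAT over VAT. The causes were not tested.

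Cry1 in SAT over VAT gained a call in 7 of 35 fits without 1 library. With plain library totals, Clock correlated with Bmal1 in SAT at 0.68 (permutation p = 0.0327) and Nr1d1 at 0.02.

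A replicate block on the title number gave 7575, 6350 and 5190 genes for BAT over SAT, BAT over VAT and SAT over VAT in sham rats, and -0.030 for Per2 in SAT over VAT. It ended the call of Per3 and added that of Dbp in BAT over SAT, with no other member call changed. Over all genes, 68 pairs of libraries with the same number had a median correlation of deviations of 0.0923 (-0.353 to 0.366, 32 over 0.1), against -0.0184 for 340 pairs with different numbers (64 over 0.1). Pairs with the same number were thus over 0.1 more often but not all were, and since the labels do not state that a number is 1 rat, the block was kept as an alternative. Bmal1 and Npas2, with medians of 81.5 and 13 counts in BAT, are the members whose precision depth limits most.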
